A study of Triticum aestivum with 12 samples.

Results

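The flag leaf transcriptomes of AAC Magnet and AAC Tradition, a pair of modern Canadian spring bread wheats that were both bred for the Eastern ecozone, were compared through 3 libraries of each variety, out of 12 libraries of 4 varieties. A gene entered the comparison when its normalized count was at least 10 in at least 3 of these 6 libraries. Of 107411 genes in the table, 69187 were above 0 in at least 1 of the 6 libraries and 40449 were tested. At the edge of this filter, the third-highest value lay from 10 to 11 in 718 genes that entered, with a median of their mean levels of 9.92 normalized counts, and from 9 to 10 in 1079 genes that did not, with a median of 9.13.

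All plants were untreated controls of their variety, with no transgene or introduced allele named. The study surveyed cuticular wax, the lipid coat of the leaf, in a historic panel of wheat varieties, and used RNA-seq of 4 modern ones to look at wax genes. AAC Concord and AAC Starbuck, the other 2 varieties, are Western ecozone wheats, and their levels are given beside those of AAC Magnet and AAC Tradition where they show which variety stands apart. The sample labels place the plants in field plots, with a pair of fully expanded flag leaves collected from each plot. A figure legend of the study instead places them in a greenhouse, with flag leaves taken at flowering, and the values cannot settle this. No source states that replicates were separate plants, so p-values measure the spread between these libraries. The tissue label could not be checked against markers, because the identifiers carry no gene names outside the wax list.

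Bread wheat is an allohexaploid. Its chromosomes fall into the A, B and D subgenomes, each from a different ancestral grass. Most genes exist as homoeologues, the copies of the same ancestral gene on the corresponding chromosomes of each subgenome. Modern varieties differ by the chromosome segments they took from their parents, and some carry segments introgressed from relatives of wheat. The flag leaf is the last leaf below the spike and a main source of carbohydrate for the grain.

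The depth, estimated from the step between low values that was taken as 1 read, ranged from 4484411 to 5836625 reads for the AAC Magnet libraries and from 4612296 to 5694183 for those of AAC Tradition. Each detected 58024 to 59109 genes, and for a gene listed at 0 the limit on its expected count was taken as 3 reads, which is 2.67 to 3.72 normalized counts. The values summed to between 5190233 and 5362305 for AAC Magnet and between 5652159 and 5902642 for AAC Tradition. The 100 most abundant genes of each library held 12.3% to 12.6% of its sum in AAC Magnet, beside 13.4% to 14.1% in AAC Tradition. On log2(value + 1) over the tested genes, Pearson's r was 0.940 to 0.966 within a variety (6 pairs of libraries) and 0.835 to 0.869 between the varieties (9 pairs), a description across genes, which are not independent replicates. The difference between the varieties held 61.3% of the squared distance among libraries (exact permutation p = 0.1, the smallest that 3 against 3 libraries allow).

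AAC Magnet and AAC Tradition differed in 2383 genes, 5.89% of those tested, called differentially expressed genes (DEGs) at a limma adjusted p under 0.05 (Benjamini-Hochberg) and a difference of more than 1 on the log2 scale. Of these, 1126 (2.78%) were higher and 1257 (3.11%) were lower in AAC Magnet. Without the limit on the fold change 3124 genes (7.72%) passed, and at an unadjusted p under 0.05 there were 9204 (22.8%). The median log2 fold change was 1.78 among the higher and -1.91 among the lower ones, whereas the median size over all tested genes was 0.26. The difference was over 4-fold in 1085 DEGs, 481 higher and 604 lower, and over 16-fold in 319, 135 higher and 184 lower. The 3 libraries of one variety did not overlap the 3 of the other in any DEG, beside 12008 genes (29.7%) without overlap among all tested.

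Most DEGs were low in at least 1 library. A value of at least 10 in all 6 libraries was found in 1045 DEGs (43.9%), and among the 33182 tested genes with such values 3.15% were called. Another 1279 genes passed the filter through 1 variety alone, and of these 946 were called, so their share was set in part by the filter. The share of DEGs fell from 9.66% of the 7943 genes with a mean level under 20 normalized counts to 4.15% of the 4918 genes at 200 to 1000, and was 5.67% of the 582 genes over 1000. Direction also moved with the level. Below 20 normalized counts 386 DEGs were higher and 381 lower in AAC Magnet, whereas over 1000 only 6 were higher and 27 lower.

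Scaling every library to the same total shifted the median log2 fold change of all genes from -0.0014 to 0.11, and the fold changes given here are on the deposited scale, relative to a median close to 0. With that scaling 1389 DEGs were higher and 1084 lower in AAC Magnet, so the excess of lower genes turned, and over 1000 normalized counts 8 were higher and 18 lower. Leaving out replicate 1 or 2 of AAC Tradition also turned it, to 882 higher and 849 lower and to 899 higher and 854 lower. The excess of lower genes over all DEGs was therefore not stable. That among the genes over 1000 kept its direction under both other scalings tried, and was not read with libraries left out. Over all 582 genes of this level the median log2 fold change was itself below 0, at -0.29 on the deposited scale and -0.17 at the same total.

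DEGs were most frequent on the B subgenome and least frequent on the D subgenome. The B subgenome had 989 DEGs among 13220 tested genes (7.48%), the A subgenome 740 among 13257 (5.58%) and the D subgenome 592 among 13504 (4.38%). Genes on unplaced scaffolds had the highest share, with 62 DEGs among 468 (13.2%). The order was the same among genes of at least 10 in all 6 libraries, with 3.93% on B, 2.98% on A and 2.46% on D. Both directions were present on each subgenome, with 483 higher and 506 lower on B, 347 and 393 on A, and 267 and 325 on D. These shares are descriptions, since genes are not replicates, and the order of B, A and D was the same in the main fit and in all 16 alternative fits.

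Within the homoeologous groups, the sets of corresponding chromosomes, the B chromosome had the highest share in 5 of 7 groups. The exceptions were groups 3 and 7, where the A chromosome was highest by a narrow margin (5.94% on 3A against 5.84% on 3B, and 6.82% on 7A against 6.12% on 7B). The D chromosome was lowest in 5 groups, and 2A (4.18%) and 5A (4.0%) were lowest in the others. Among the 21 chromosomes, 6B stood highest with 180 DEGs in 1712 tested genes (10.5%), more than its homoeologues 6A (6.48%) and 6D (5.16%). It was followed by 5B (8.14%), 1B (7.89%) and 2B (7.40%). Chromosomes 3D (71 of 2114, 3.36%) and 4D (55 of 1623, 3.39%) were lowest.

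Direction was uneven on a few chromosomes. On 1A 42 DEGs were higher and 77 lower in AAC Magnet, on 5A 30 and 54, on 1D 29 and 49, and on 4D 17 and 38, whereas on 3A 72 were higher and 49 lower. On the other chromosomes 43.9% to 54.0% of the DEGs were higher. On 6B the directions were near balance, at 86 higher and 94 lower.

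**Figure D1:**
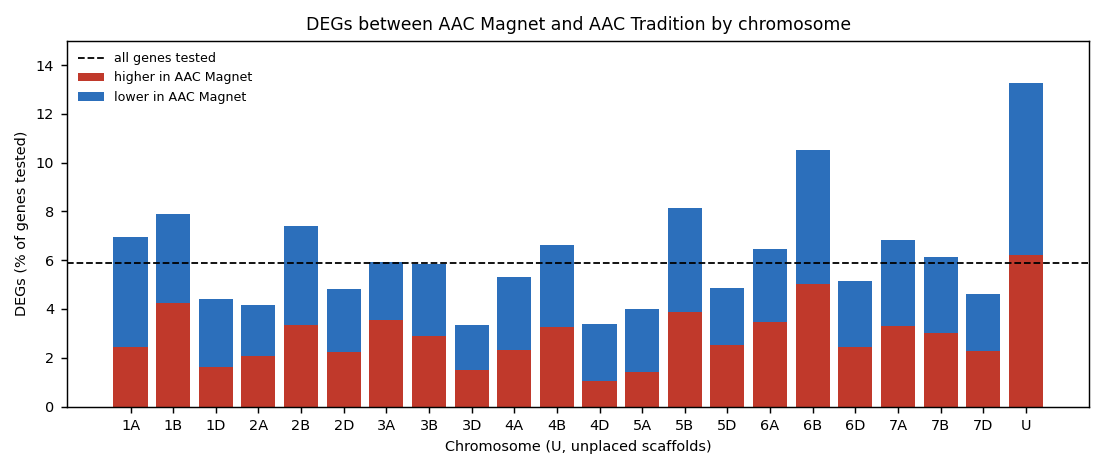
Share of tested genes called as DEGs on each chromosome (%), split into genes higher (red) and lower (blue) in AAC Magnet, with the share over all tested genes (5.89%) as a dashed line. Chromosome 6B (10.5%) and the unplaced scaffolds (13.2%) stand highest, and 3D (3.36%) and 4D (3.39%) lowest.

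The share of the summed values from each subgenome was read as well. It shows only a net difference, weighted to abundant genes, whereas the share of DEGs counts both directions. The D subgenome held 34.1% ± 0.074 (SD, n = 3) of the summed values of an AAC Magnet library and 33.6% ± 0.18 of an AAC Tradition library, a difference of 0.571 percentage points. The A subgenome held 32.8% ± 0.078 and 33.1% ± 0.090. Neither comparison overlapped, and both gave an exact permutation p of 0.1 (two-sided, adjusted p = 0.15 over 3 subgenomes), the smallest the design allows. The B subgenome, which had the most DEGs, held 31.7% ± 0.072 and 31.6% ± 0.28 (exact permutation p = 0.8). The unplaced scaffolds held 1.35% ± 0.022 and 1.73% ± 0.38, a difference of -0.374 percentage points (exact permutation p = 0.1), with replicate 1 of AAC Tradition at 2.16%. The shares of a library add up to the whole, so their differences depend on each other. Without the 100 most abundant genes the D difference was 0.192, the A difference -0.162 and that of the unplaced scaffolds -0.035 percentage points.

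Along the chromosomes, in the order of the identifiers, DEGs were concentrated towards both ends. In the first 10% of the tested genes of a chromosome 10.9% were DEGs and in the last 10% 10.3%, beside 4.01% in the middle stretch from 30% to 70%. The B subgenome had the steepest rise at the start, with 15.7% in the first 10% against 10.6% on A and 6.57% on D. A DEG was followed by another DEG as the next tested gene in 410 of 2318 cases (17.7%), and the pair had the same direction in 284 of those 410 (69.3%).

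In sliding windows of 50 tested genes the median share of DEGs was 4%, and 14.7% of 38952 windows held none. The 6 densest windows that share no gene lay near a chromosome end, on 1B, 7B, 4A, 2B, 1A and 6B. Together their 300 genes held 151 DEGs, 6.34% of all DEGs in 0.742% of the tested genes, and outside them 5.56% of the genes were DEGs. Windows of 5B and 6A followed at 38%, and windows of 2B, 3A and 3B at 36%.

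**Figure D2:**
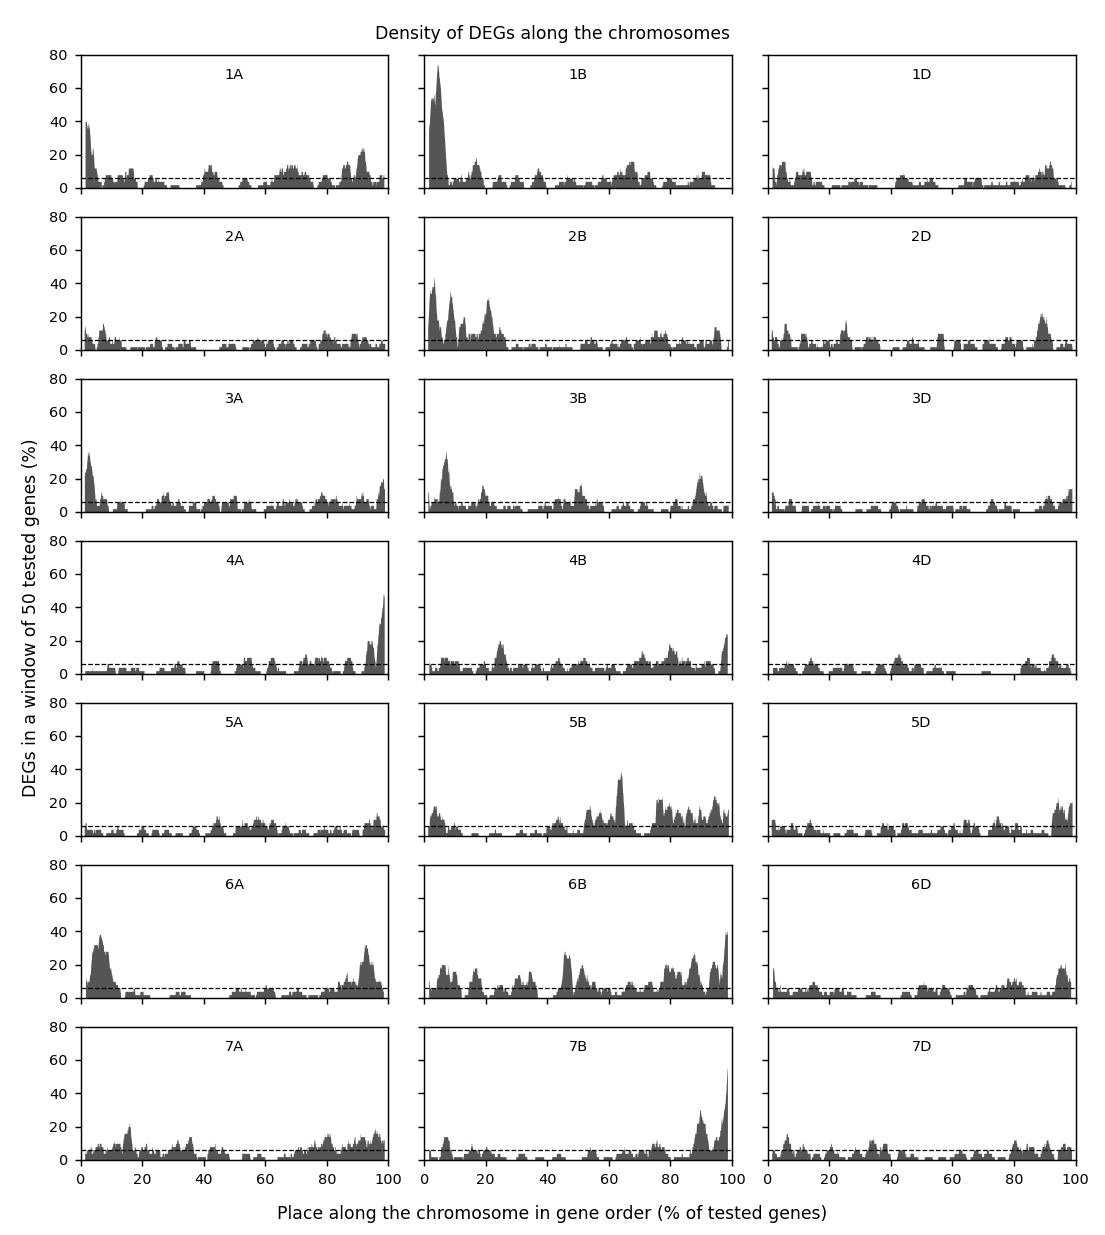
Share of DEGs (%) in sliding windows of 50 tested genes, plotted against the place of the window along each chromosome in gene order (%), with A, B and D chromosomes of a homoeologous group in a row and the share over all tested genes (5.89%) as a dashed line. The start of 1B reaches 74%, and no window of a D chromosome exceeds 24%.

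The densest window was at the start of 1B, from TraesCS1B02G020600 to TraesCS1B02G044500, where 37 of 50 genes (74%) were DEGs, 27 higher and 10 lower in AAC Magnet. AAC Tradition stood apart here. For 32 of the 37 DEGs AAC Starbuck was nearer to AAC Magnet than to AAC Tradition, and for 30 AAC Concord was, beside 45.5% and 43.9% over all DEGs. A library of AAC Tradition had 33 to 34 of the 50 genes at 10 or more, and a library of the other varieties 38 to 47. The window was chosen for its DEGs, most of them lower in AAC Tradition, so this lower count was set in part by that choice. Of the 22 genes at 10 or more in all 6 libraries, 12 were DEGs. The same relative place held 18% DEGs on 1A and 12% on 1D.

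The DEG of highest mean in this window, TraesCS1B02G022300, had 195, 201 and 123 normalized counts in AAC Magnet and 507, 552 and 454 in AAC Tradition. It was lower in AAC Magnet by a log2 fold change of -1.57 (SE 0.23, adjusted p = 0.0085), with 256 in AAC Starbuck and 227 in AAC Concord on average. It opened a stretch of 8 consecutive tested genes that were all DEGs and ended at TraesCS1B02G029100, 2 lower and 6 higher in AAC Magnet. Within that stretch TraesCS1B02G022800 had 409 to 460 normalized counts in AAC Magnet against 78.3 to 103 for AAC Tradition, with means of 384 and 374 in AAC Starbuck and AAC Concord. Genes of such stretches were chosen for their values, and their levels are given as a description.

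Further along the window, 6 consecutive tested genes from TraesCS1B02G042000 to TraesCS1B02G043900 were all higher in AAC Magnet. Of these, TraesCS1B02G043400 (mean 202 normalized counts), TraesCS1B02G043600 (107) and TraesCS1B02G043200 (38.0) were at 0 in every library of AAC Tradition. TraesCS1B02G043600 was at similar levels in AAC Starbuck (89.99) and AAC Concord (99.6), whereas TraesCS1B02G043400 was at 343 in AAC Starbuck and 2.32 in AAC Concord. TraesCS1B02G042200 had 469 to 686 in AAC Magnet against 4.41 to 27.2 for AAC Tradition. AAC Tradition thus had the lowest mean of the 4 varieties at each of these 4 genes.

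At the end of 7B, from TraesCS7B02G472500 to TraesCS7B02G502100, 28 of 50 genes (56%) were DEGs, 18 higher and 10 lower in AAC Magnet. AAC Magnet stood apart, as AAC Starbuck was nearer to it for 2 and AAC Concord for 3 of the 28. Of the 19 genes at 10 or more in all 6 libraries, 3 were DEGs, so most of the 28 were low in at least 1 library. The same place held 12% DEGs on 7A and 6% on 7D. The DEG of highest mean, TraesCS7B02G482000, had 250, 306 and 233 normalized counts in AAC Magnet and 55.8, 60.6 and 36.5 in AAC Tradition (log2 fold change 2.37, SE 0.23, adjusted p = 0.0016). In AAC Starbuck it averaged 33.3 and in AAC Concord 91.6, so that each of the other varieties was nearer to AAC Tradition.

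At the end of 4A, from TraesCS4A02G474200 to TraesCS4A02G498400, 24 of 50 genes (48%) were DEGs, of which 18 were lower and 6 higher in AAC Magnet. AAC Magnet again stood apart, with AAC Starbuck nearer to it for 3 and AAC Concord for 2 of the 24. An AAC Magnet library had 30 to 35 of the 50 genes at 10 or more, and a library of any other variety 42 to 46. Here too the choice of the window by its DEGs set the lower count in part. Among the 24 genes at 10 or more in all 6 libraries 3 were DEGs. The same place held 24% DEGs on 4B and 2% on 4D. Since the end of 4A is known to derive from an ancestral exchange with group 7, the starts of 7A (8%) and 7D (4%) were also read. TraesCS4A02G494700, the DEG of highest mean, was among the 6 higher ones, at 303, 235 and 261 normalized counts against 141, 93.4 and 160 (log2 fold change 1.04, SE 0.23, adjusted p = 0.045). Its call was lost when any library other than replicate 3 of AAC Tradition was left out (adjusted p = 0.0844 to 0.13).

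Near the start of 2B, from TraesCS2B02G027000 to TraesCS2B02G046400, 22 of 50 genes (44%) were DEGs, 11 in each direction. AAC Concord was nearer to AAC Magnet for 19 and AAC Starbuck for 2 of the 22. AAC Concord also stood apart, with 18 to 22 of the 50 genes at 0 in a library, beside 4 to 8 in the other varieties. A gene at 0 in AAC Concord counts as nearer to AAC Magnet wherever AAC Magnet is below AAC Tradition. An example is TraesCS2B02G042600, at 12.4 to 13.1 normalized counts in AAC Magnet, 23.2 to 34.7 in AAC Tradition and 0 in AAC Concord. The 22 DEGs had the largest differences of the 6 windows, with a median size of 4.32 on the log2 scale beside 2.39 to 3.08 in the other 5. Among the 17 genes at 10 or more in all 6 libraries 2 were DEGs. The same place held 8% DEGs on 2A and 4% on 2D.

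This window held a block of 7 consecutive tested genes, TraesCS2B02G030000 to TraesCS2B02G030700, that were all higher in AAC Magnet. TraesCS2B02G030200 had 375, 320 and 297 normalized counts in AAC Magnet and 1.24, 0 and 0 in AAC Tradition. It was at 0 in every AAC Starbuck library and at 104, 66.8 and 134 in AAC Concord. Next to it, TraesCS2B02G030300 had 249, 198 and 215 in AAC Magnet, 0 in every AAC Tradition library and 34.4, 48.5 and 88.7 in AAC Concord, a difference between AAC Magnet and AAC Tradition of at least 66.1-fold against the mean floor of 3 reads. TraesCS2B02G030400 (mean 112 in AAC Magnet) was at 0 in all libraries of the other 3 varieties, so AAC Concord did not follow AAC Magnet at every gene of the block.

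A short way on, 6 consecutive tested genes from TraesCS2B02G032600 to TraesCS2B02G035200 were all lower in AAC Magnet. TraesCS2B02G034200 was at 0 in AAC Magnet and at 48.0 to 53.1 normalized counts in AAC Tradition, with a mean of 46.0 in AAC Starbuck and 0.225 in AAC Concord. In all 6 genes the AAC Magnet mean was 2.69 or less, that of AAC Concord at most 0.275, and those of AAC Tradition and AAC Starbuck at least 14.7. The AAC Concord libraries also had fewer of the 50 genes of the window at 10 or more, 18 to 21 beside 31 to 39 in the other varieties. The 50 genes entered by their values in AAC Magnet and AAC Tradition alone, so genes expressed only in AAC Concord or AAC Starbuck are not counted.

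At the start of 1A, from TraesCS1A02G000300 to TraesCS1A02G019000, 20 of 50 genes (40%) were DEGs, 17 lower and 3 higher in AAC Magnet. AAC Starbuck was nearer to AAC Magnet for 15 and AAC Concord for 9 of the 20. The same place on 1B held 36% DEGs, the highest of the homoeologous shares read, and on 1D 12%. Most of its genes were expressed in both varieties, as 33 of the 50 and 7 of the 20 DEGs were at 10 or more in all 6 libraries. TraesCS1A02G019000, its DEG of highest mean, had 161, 161 and 173 normalized counts in AAC Magnet and 475, 448 and 542 in AAC Tradition (log2 fold change -1.56, SE 0.14, adjusted p = 0.0013). AAC Starbuck (208) and AAC Concord (253) averaged between them, nearer to AAC Magnet.

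At the end of 6B, from TraesCS6B02G454500 to TraesCS6B02G470700, 20 of 50 genes (40%) were DEGs, 12 higher and 8 lower in AAC Magnet. Here the varieties fell into pairs, with AAC Starbuck nearer to AAC Magnet for 18 and AAC Concord for 1 of the 20. TraesCS6B02G468200 had 342, 311 and 281 normalized counts in AAC Magnet and 126, 139 and 148 in AAC Tradition (log2 fold change 1.17, SE 0.15, adjusted p = 0.0057). Its means were 347 in AAC Starbuck and 156 in AAC Concord, each close to its partner. Of the 24 genes at 10 or more in all 6 libraries, 5 were DEGs. The same place held 8% DEGs on 6A and 12% on 6D.

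**Figure D3:**
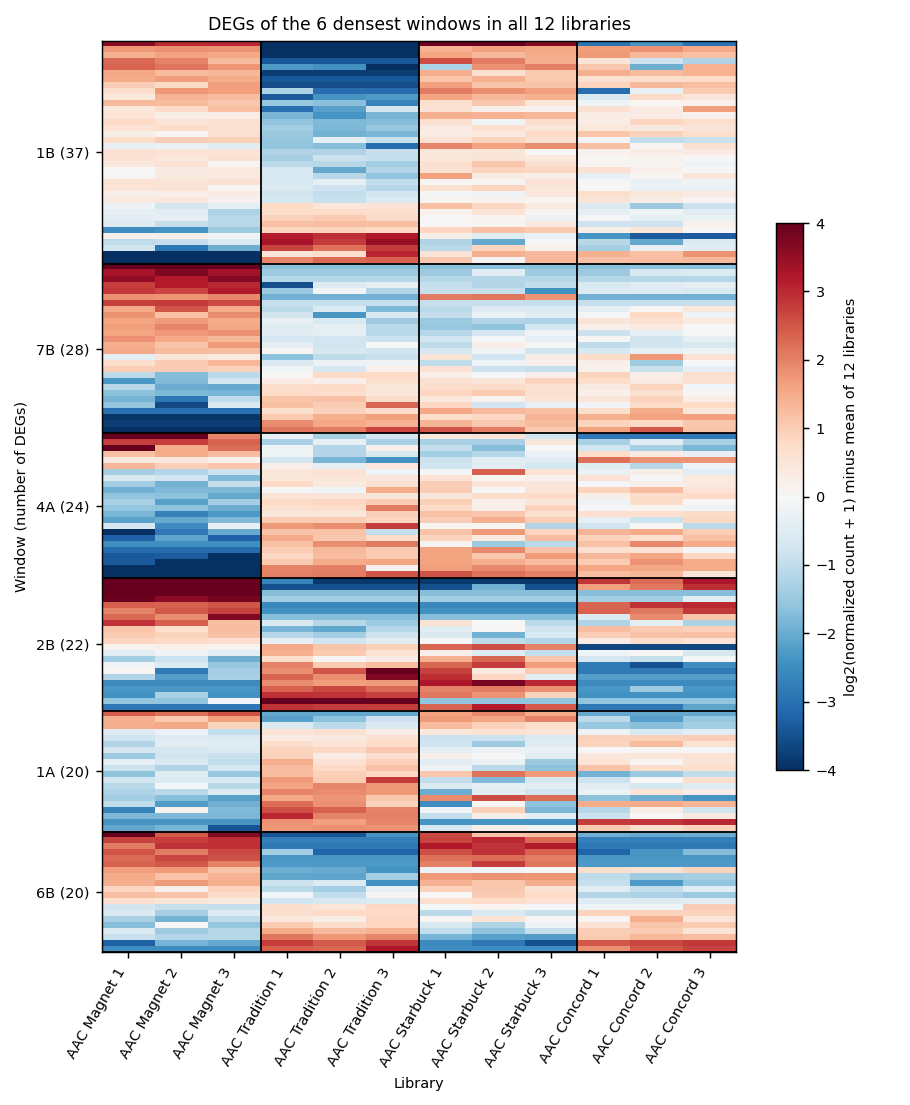
Levels of the 151 DEGs of the 6 densest windows (rows, by window and log2 fold change) in all 12 libraries (columns), as log2(normalized count + 1) minus the mean of the 12 libraries, with colours ending at 4 in each direction. AAC Tradition differs from the other 3 varieties on 1B, and AAC Magnet does on 7B and 4A. AAC Concord is nearer to AAC Magnet for most of the 2B DEGs, and AAC Starbuck pairs with AAC Magnet on 6B.

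Outside the windows a block of 7 consecutive DEGs lay on 5B, from TraesCS5B02G416800 to TraesCS5B02G417700, 6 lower and 1 higher in AAC Magnet. TraesCS5B02G417700 was at 0 in AAC Magnet and at 539, 556 and 789 normalized counts in AAC Tradition, at least 201-fold higher. It was at 527, 459 and 378 in AAC Starbuck and at 0 in AAC Concord. Its neighbour TraesCS5B02G417500 had the same pattern, with 218 to 269 in AAC Tradition, a mean of 194 in AAC Starbuck and 0 in AAC Magnet and AAC Concord.

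Over all DEGs the other varieties divided between the pair. AAC Starbuck was nearer to AAC Magnet in 1084 (45.5%) and AAC Concord in 1045 (43.9%) of 2383. Both were nearer to AAC Magnet in 546 (22.9%), which left AAC Tradition apart, and both were nearer to AAC Tradition in 800 (33.6%), which left AAC Magnet apart. AAC Starbuck alone sided with AAC Magnet in 538 and AAC Concord alone in 499.

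A total of 201 genes, 0.497% of those tested, were at 0 in all 3 libraries of one variety. In the other variety they were at 10 or more in all 3. All of them were DEGs, which this selection made nearly certain. AAC Magnet expressed 90 of them and AAC Tradition 111. The B subgenome held 114 of the 201 (56.7%, beside 32.7% of the tested genes), the A subgenome 49 (24.4%) and the D subgenome 30 (14.9%). By chromosome, 6B had 26, 2B 21, 5B 17 and 1B 16. The 6 densest windows held 39.

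The 201 genes were mostly of low level, since the mean in the expressing variety was at least 100 normalized counts in 15 of 90 and in 14 of 111. Of the 90 genes expressed in AAC Magnet, 31 were at 0 in AAC Starbuck and 41 in AAC Concord, and 17 were at 0 in both. Of the 111 expressed in AAC Tradition, 34 were at 0 in AAC Starbuck, 31 in AAC Concord and 8 in both. A value of 0 says that no read was counted for the gene, and a gene that is not transcribed and one whose reads were not assigned to it cannot be told apart here.

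Among the 4 most abundant genes found in AAC Magnet and not in AAC Tradition, TraesCSU02G066200 on an unplaced scaffold had 687, 599 and 536 normalized counts in AAC Magnet, at least 182-fold above the floor. AAC Starbuck expressed it as well, at 742, 834 and 738, and AAC Concord did not, at 0 in each library. TraesCS5D02G537600 had 256, 274 and 315 in AAC Magnet and 0 in all 9 libraries of the other varieties. TraesCSU02G147500 was likewise confined to AAC Magnet, at 263, 247 and 253, apart from 0.823 in 1 library of AAC Concord, which is below the value of 3 reads. The fourth was TraesCS2B02G030300 of the 2B block.

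Among the 4 found in AAC Tradition and not in AAC Magnet, TraesCS5B02G417700 of the 5B block was the most abundant. TraesCS1A02G278800 had 440, 370 and 952 normalized counts in AAC Tradition, at least 188-fold above the floor, with 0 in AAC Starbuck and 112, 124 and 126 in AAC Concord. TraesCS7B02G474800, inside the 7B window, had 265, 246 and 379, at least 94.8-fold, and AAC Starbuck (mean 238) and AAC Concord (214) expressed it too. TraesCS6A02G067700 had 59.5, 68.5 and 836, so its mean of 321 rested mainly on 1 library, and the other varieties averaged 51.9 and 99.4. The 4 genes were at 0 in every AAC Magnet library.

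Large graded differences, in genes of at least 10 normalized counts in all 6 libraries, were found on all 3 subgenomes. The largest was in TraesCS1B02G008500, with 16.8, 15.5 and 12.5 in AAC Magnet and 378, 397 and 467 in AAC Tradition (log2 fold change -4.71, SE 0.17, adjusted p = 1e-05). AAC Starbuck (mean 14.6) and AAC Concord (22.6) were as low as AAC Magnet. It lies on 1B ahead of the densest window, in a stretch of 7 consecutive DEGs.

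The next largest among the genes lower in AAC Magnet was TraesCS3A02G084500, at 33.5, 29.8 and 44.4 normalized counts against 426, 440 and 552 (log2 fold change -3.69, SE 0.20, adjusted p = 8.3e-05). AAC Starbuck was low with AAC Magnet (mean 31.1) and AAC Concord high with AAC Tradition (387). TraesCS2B02G435900 (-3.54), TraesCS2B02G000100 (-3.52) and TraesCS1D02G278100 (-3.49) were higher in AAC Tradition than in each other variety, with AAC Tradition means of 319, 813 and 286 normalized counts and means of 27.1 to 39.6, 74.5 to 152 and 21.3 to 46.9 elsewhere. In TraesCS1D02G375700 (-3.67) AAC Magnet was the low one, at a mean of 24.2 beside 329 in AAC Tradition, 361 in AAC Starbuck and 1427 in AAC Concord.

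Of the genes higher in AAC Magnet, TraesCS2A02G507400 led with 364, 234 and 214 normalized counts against 28.3, 14.9 and 11.3 (log2 fold change 3.88, SE 0.36, adjusted p = 0.0013). TraesCS7B02G429800 had the tightest replicates of the 6 so named, at 236, 260 and 202 against 22.3, 16.9 and 16.6 (3.58, SE 0.18, adjusted p = 5.6e-05), and was lower still in AAC Starbuck and AAC Concord (means 10.2 and 6.99). TraesCS2D02G319000 (3.6) was high in AAC Starbuck as well (181), and TraesCS2D02G468900 (3.72) in AAC Concord (510). The AAC Magnet libraries thus stood alone in some of these genes and shared the high level with 1 other variety in others.

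TraesCS5D02G551600 (log2 fold change 3.61, adjusted p = 0.0038) had 225 to 495 normalized counts in AAC Magnet against 17.8 to 43.0 for AAC Tradition. TraesCS1A02G076700 varied most, at 754, 87.2 and 333 against 16.1, 15.9 and 25.4 (3.84, SE 0.72, adjusted p = 0.024). Its call was lost when replicate 3 of AAC Magnet or any library of AAC Tradition was left out (adjusted p = 0.0539 to 0.0831).

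**Figure D4:**
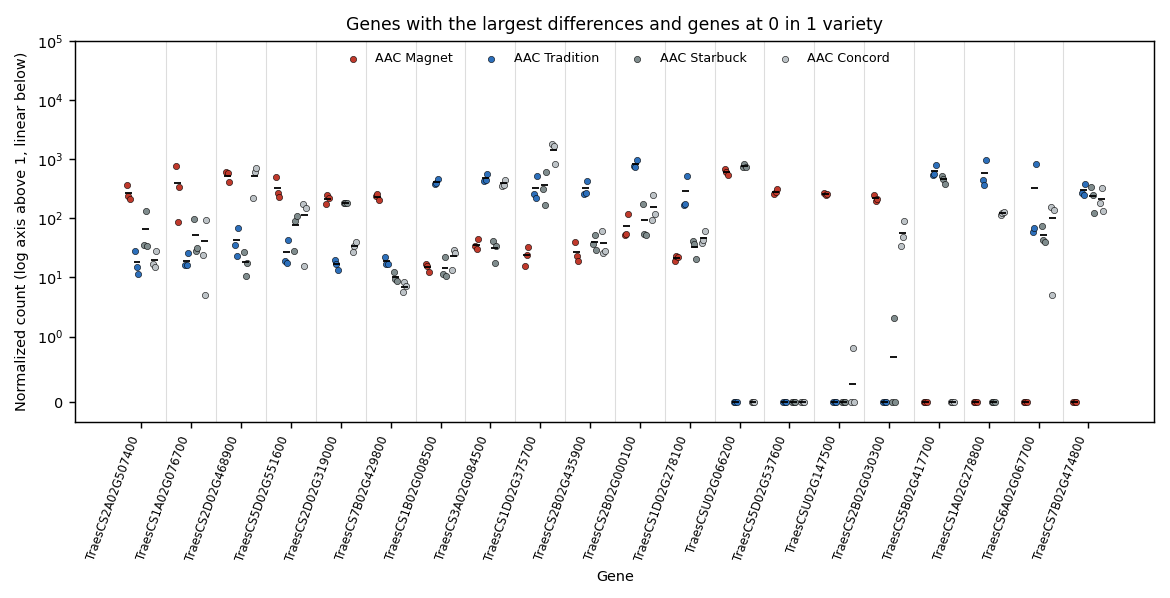
Normalized counts (log axis above 1, linear below) of the 12 genes with the largest graded differences and of the 8 most abundant genes at 0 in 1 variety, 1 point per library and a bar for the mean of 3. AAC Starbuck and AAC Concord side with AAC Magnet in some genes and with AAC Tradition in others, as with TraesCSU02G066200 (high in AAC Starbuck) and TraesCS5B02G417700 (0 in AAC Concord).

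The most abundant DEGs, by normalized counts that are not corrected for gene length, included 1 gene on each chromosome of group 3 that moved together. TraesCS3A02G230000 had 4012, 5760 and 4787 normalized counts in AAC Magnet and 11670, 11883 and 13037 in AAC Tradition (log2 fold change -1.34, SE 0.18, adjusted p = 0.006). TraesCS3B02G259300 had 2290, 3637 and 2852 against 8158, 8165 and 8534 (-1.53, SE 0.20, adjusted p = 0.0055). TraesCS3D02G223300 had 1702, 2693 and 2127 against 5509, 5780 and 6312 (-1.45, SE 0.20, adjusted p = 0.0072).

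In all 3 genes replicate 1 was the lowest and replicate 2 the highest of the AAC Magnet libraries, and AAC Magnet was the lowest of the 4 varieties, with AAC Concord highest at means of 17641, 11856 and 9367. The sources at hand do not state whether the 3 are homoeologues. The fourth abundant gene lower in AAC Magnet, TraesCS2A02G066800, had 1878, 2263 and 2189 against 3771, 3702 and 5420 (-1.007, SE 0.20, adjusted p = 0.028). Its adjusted p rose to 0.0578 to 0.0919 when any library other than replicate 3 of AAC Tradition was left out, and without that replicate its log2 fold change was -0.83, inside the limit.

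Among abundant genes higher in AAC Magnet, TraesCS5D02G401300 had 11812, 9005 and 9830 normalized counts against 2036, 2010 and 1474 (log2 fold change 2.48, SE 0.19, adjusted p = 0.00056). AAC Starbuck held 6704, 2288 and 2132, and AAC Concord 975 to 2273, so AAC Magnet was the highest in every library. TraesCS1D02G078900 had 3961, 2914 and 3683 against 669, 674 and 688 (2.36, SE 0.16, adjusted p = 0.0003). In a fit with all 12 libraries its adjusted p was 0.106, where AAC Concord ranged from 125 to 2705. TraesCS5D02G504100 (1.12, adjusted p = 0.0068) and TraesCS4A02G175600 (1.009, adjusted p = 0.015) differed less, with AAC Magnet means of 2541 and 3068 and AAC Tradition means of 1172 and 1522. The adjusted p of TraesCS4A02G175600 was 0.0545 without replicate 1 of AAC Magnet, and its log2 fold change ranged from 0.92 to 1.11 with single libraries left out.

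The wax genes listed by the study were the only ones with names. Fatty acyl-CoA reductases (FAR) make the primary alcohols of leaf wax, CER1 proteins take part in making alkanes, and the W1 gene cluster encodes a polyketide synthase (DKP), a hydrolase (DMH) and cytochrome P450 enzymes that make and modify beta-diketones, the compounds behind the glaucous bloom of wheat. Of 39 listed genes, 25 were above 0 in at least 1 of the 6 libraries and 10 passed the filter, with 1 called as higher and 0 as lower in AAC Magnet by limma, beside 5.89% called over all genes. At an unadjusted p under 0.05 there were 4. The median log2 fold change over the 10 was -0.04, beside -0.0014 over all tested genes.

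Of the TaCER1-6 homoeologues the B copy was called. TraesCS6B02G255100 had 51.1, 57.1 and 41.6 normalized counts in AAC Magnet and 12.1, 16.5 and 18.3 in AAC Tradition, higher by a log2 fold change of 1.62 (SE 0.21, adjusted p = 0.0054). AAC Starbuck had 18.5, 52.6 and 49.8 and AAC Concord 9.15, 4.82 and 3.46. The A copy, TraesCS6A02G226500, was below the filter, at 2.11, 2.40 and 3.58 against 0 in each AAC Tradition library, values of a few reads. The D copy, TraesCS6D02G208500, had 2.82, 12.2 and 0.823 against 3.34, 0.919 and 2.70, and the varieties overlapped.

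The TaCER1-1 homoeologues did not pass the test. TraesCS1A02G150900 had 379, 332 and 200 normalized counts against 356, 367 and 196 (log2 fold change -0.01, adjusted p = 0.99), and TraesCS1B02G168500 had 543, 388 and 332 against 462, 332 and 158 (0.51, SE 0.40, adjusted p = 0.51). The D copy, TraesCS1D02G147900, was at 3.14 or less in each of the 6 libraries. The A and B copies thus made up the TaCER1-1 signal in both varieties.

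TaFAR4 passed the filter on 4B, 4D and 5A and was called on none of them. TraesCS4B02G363100 had 70.2, 64.5 and 48.0 normalized counts against 57.0, 43.7 and 19.9 (log2 fold change 0.69, SE 0.38, adjusted p = 0.34). TraesCS4D02G356300 gave 0.47 (adjusted p = 0.33) and TraesCS5A02G531300 -0.08 (adjusted p = 0.92). Of the other FAR genes above 0, TaFAR5 on 4B (TraesCS4B02G006800) had 7.33, 7.16 and 5.33 against 3.72, 2.98 and 0, below the filter, and was at 0 in the 6 libraries of AAC Starbuck and AAC Concord.

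In the W1 clusters 3 of the 5 listed DKP genes on 2B passed the filter, with high values in 2 of 3 AAC Tradition libraries. Of the others, TraesCS2B02G006000 was at 0 in all 6 libraries and TraesCS2B02G007000 had at most 4.96 normalized counts. TraesCS2B02G006800 had 0, 10.7 and 0 normalized counts in AAC Magnet and 207, 200 and 11.1 in AAC Tradition, groups that did not overlap (log2 fold change -5.13, SE 1.38, adjusted p = 0.076). TraesCS2B02G006300 had 1.05, 10.7 and 0 against 176, 209 and 5.53 (-4.43, SE 1.49, adjusted p = 0.14), and TraesCS2B02G006700 had 2.1, 15.5 and 0 against 176, 188 and 4.42 (-3.93, SE 1.58, adjusted p = 0.20). All 3 had an unadjusted p under 0.05, and in all 3 replicate 3 was the lowest AAC Tradition library and replicate 2 the highest of AAC Magnet. AAC Starbuck was high for TraesCS2B02G006800 (335, 284 and 208) and TraesCS2B02G006700 (291, 237 and 253), and low for TraesCS2B02G006300 (13.2, 8.30 and 21.6). AAC Concord had 5.33 to 46.9, 7.99 to 52.5 and 1.77 to 13.1 in the same order, each time lowest in replicate 3.

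Without replicate 3 of AAC Tradition these 3 genes were called lower in AAC Magnet, and a limma fit with a trend or with all 12 libraries called TraesCS2B02G006800 alone. On 2D, TraesCS2D02G016100 had 116, 132 and 32.9 against 226, 233 and 19.9 (-0.35, adjusted p = 0.88), so replicate 3 was the lowest library in both varieties. The other DKP gene of 2D above 0, TraesCS2D02G015700, was below the filter, at 2.1, 3.58 and 0.890 against 23.6, 20.9 and 0. None of the listed hydrolase and P450 genes of the clusters passed the filter, and each of them was at 0 in all 3 AAC Magnet libraries apart from the P450 gene TraesCS2D02G016000, with 1.19 in replicate 2. The hydrolase gene TraesCS2B02G006100 had 24.8 in 1 AAC Tradition library and 0 in the others, and TraesCS2B02G006500 had 14.9 in 1 other.

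**Figure D5:**
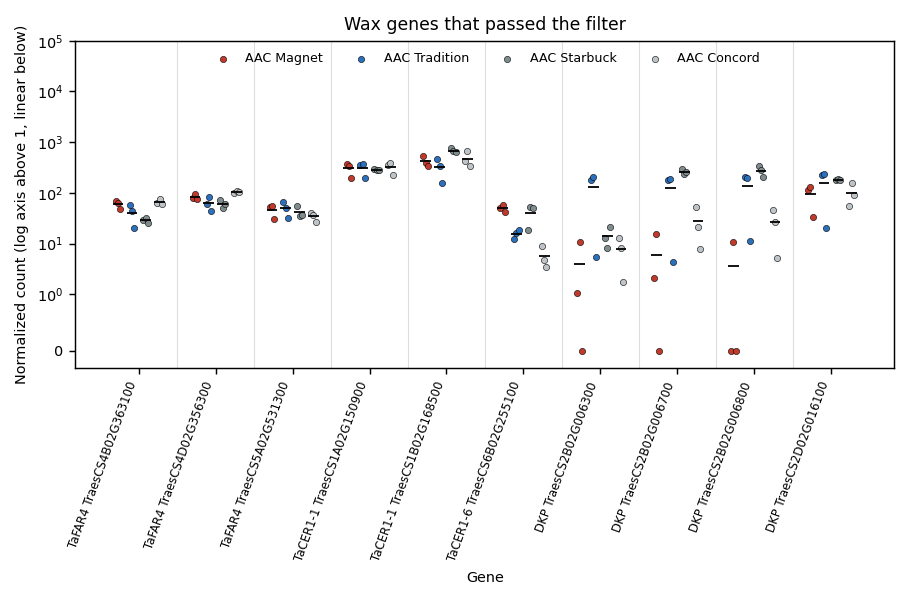
Normalized counts (log axis above 1, linear below) of the 10 wax genes that passed the filter, 1 point per library and a bar for the mean of 3. TaCER1-6 on 6B is higher in every AAC Magnet library than in any of AAC Tradition, and the 3 DKP genes of 2B have 1 low AAC Tradition library each.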

How the data were processed

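RNA-seq of flag leaf was analysed for 3 libraries of AAC Magnet and 3 of AAC Tradition. As the authors describe, Trimmomatic served for trimming, Salmon for counting on the RefSeq 2.1 reference and DESeq2 for differential expression. The deposited signal values are normalized counts under RefSeq 1.1 identifiers. A table of wax genes in the study heads the same values as TPM, but the columns sum to more than TPM can, so they were taken as normalized counts without correction for gene length. How they were normalized is not given in the sources used here. Salmon can divide reads between homoeologues and other close copies, and the varieties differ from the reference. The part of either in these results was not tested.

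Values were tested as log2(value + 1) with limma 3.58.1 (R 4.3.3) in a fit of the 6 libraries with variety as the only term (residual degrees of freedom 4, prior 2.86) and Benjamini-Hochberg adjustment over all tested genes. The filter and thresholds are given with the results. A fold change on this scale understates differences of low genes. Python 3.11.15 (scipy 1.17.1, pandas 2.3.3, numpy 2.4.6) served for windows, shares and exact permutation tests, and matplotlib 3.10.9 for figures. On simulated data of 41189 genes, all with a dispersion (spread between libraries beyond that of counting) of 0.0084, only the adjusted p was applied. It recovered 57 of 100 genes with a 2-fold and 100 of 100 with a 4-fold change. There were 11 false calls among 40989 genes. How these counts change with dispersion or mean level was not tested, so they are not rates for the genes reported here. Count models were not run, since whole reads were not recovered for the table.

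Genes were named by a rule: all tested wax genes, the 6 largest graded differences per direction, the 4 most abundant genes at 0 in 1 variety, the 4 most abundant DEGs per direction, and the ends and most abundant DEG of each of the 6 densest windows. Genes of consecutive DEGs were added after their values were seen. Members and lists were chosen with earlier results of these data known. No identifier matched the RefSeq gene table of 155467 genes (0 matches), so names come from the wax list of the study alone, and positions are the order of identifiers. Alternatives were other pseudocounts, filters, scalings, fits, windows and floors, and each library left out in turn.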

Additional observations from a re-analysis of the deposited data

How the results depend on the processing

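Requiring at least 10 normalized counts in all 6 libraries gave 1137 DEGs (507 higher, 630 lower in AAC Magnet), with 3.26% on A, 4.22% on B and 2.73% on D, and windows of 15.8% on 7B, 12.5% on 4A, 11.8% on 2B, 21.2% on 1A and 25% on 6B (genes at 0 in 1 variety leave by construction). A mean of at least 50 gave 1045 DEGs (438 and 607) and, in the wax list, 0 higher and 1 lower (TraesCS2B02G006800, limma adjusted p = 0.0424). No filter gave 4.87% on B, 2.65% on D, and 2 wax genes higher and 1 lower. The 10 wax genes of the main fit kept their results with no filter, so the added calls were of genes below the main filter. Windows of 100 genes gave 34% on 7B, 28% on 4A and 2B and 26% on 1A. Genes at 0 in 1 variety numbered 23 (AAC Magnet) and 26 (AAC Tradition) with at least 50 in the other, and 167 and 202 with a floor of 3 reads in place of 0. Without the 100 most abundant genes the subgenome differences were -0.162 (A) and 0.192 (D) percentage points.

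Leaving out each library in turn gave 1731 to 2046 DEGs, 760 to 1013 higher and 849 to 1116 lower in AAC Magnet. Shares ranged from 4.07% to 4.88% on A, 5.62% to 6.51% on B and 2.95% to 3.53% on D. Windows held 58% to 68% on 1B, 46% to 50% on 7B, 34% to 44% on 4A, 38% to 40% on 2B, 32% to 42% on 1A and 32% to 38% on 6B. Genes at 0 numbered 98 to 111 (AAC Magnet expressing) and 119 to 133 (AAC Tradition). In the wax list 1 gene was higher in each, and 0 to 3 were lower, 3 without replicate 3 of AAC Tradition. A limma trend and the 12-library fit each called 1 wax gene lower.

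Directions that changed were of wax genes that were not called. TraesCS5A02G531300 became 0.034 at the same total (-0.36 to 0.17 with libraries left out), TraesCS1A02G150900 0.0068 with TMM and 0.11 at the same total (-0.30 to 0.27), and TraesCS2D02G016100 ranged from -1.51 to 0.27. The cause was not tested. The 34 other named entries kept their direction in each alternative that tested them, and no filter ended the calls of TraesCS1A02G076700 (adjusted p = 0.0524), TraesCS2A02G066800 (0.0753) and TraesCS4A02G494700 (0.105). Other calls lost are given with the results.

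With the replicate number as a block, 2366 genes were DEGs, 2084 of them shared with the fit without it, and 3 wax genes were called lower, TraesCS2B02G006300 (adjusted p = 0.0293), TraesCS2B02G006700 (0.0331) and TraesCS2B02G006800 (0.0312). The numbers gave no clear pairing, since libraries of the same number correlated in their deviations by 0.0072, 0.169 and 0.224, and 4 of 6 libraries correlated best with their own number.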
